A study of Homo sapiens with 12 samples.

Results

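The 82 genes described here encode the proteins of the cytosolic ribosome. They were chosen by name from 60671 named rows of the deposited gene table: every RPL or RPS symbol followed by a number, with at most an A, X, L or AX after it, together with RPLP0, RPLP1, RPLP2, RPSA and FAU. By subunit, 49 belong to the large and 33 to the small subunit. The rule itself uses names and no measured value, but the set was picked with earlier results of these data known. Their RNA was measured by RNA sequencing in HCT116, an established human colorectal carcinoma cell line, labelled wild type in every sample. The 12 samples form 4 groups of 3: cystine-deprived cells at 24 h, control cells at 24 h, cystine-deprived cells at 48 h and control cells at 48 h. Deprived cells were washed and given DMEM with 0 mM cystine, serum and antibiotics, whereas control cells stayed in the full medium, so the wash and the change of medium cannot be told apart from the loss of cystine. Whether the 3 samples of a group were grown as separate cultures is not in the labels; if they were not, the p-values reflect technical spread alone.

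Ribosomal proteins are made in near-equal amounts and assembled on ribosomal RNA in the nucleolus, with excess protein degraded. Most of their mRNAs begin with a cytosine followed by a run of pyrimidines, the terminal oligopyrimidine (TOP) motif, through which the kinase mTOR and the RNA-binding protein LARP1 control their translation and stability. Cystine is the oxidised form of cysteine in culture medium, and its loss limits both protein and glutathione synthesis.

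The starts of 14 genes named below are shown: 9 whose RNA was lower after 48 h without cystine, 4 whose RNA was not lower, and RPS27L, the member with the largest rise. Each line gives 40 bases of the gene's own strand, with 20 before and 20 from the annotated start onward, taken from RefSeq on GRCh38.p14. Capitals mark a pyrimidine tract, a C followed by at least 4 C or T, from the match closest to the start onward. C or T before that match stays in lower case.
RPS9, chr19:54200838-54200877, plus strand: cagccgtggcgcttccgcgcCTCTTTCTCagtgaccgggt
RPS25, chr11:119018324-119018363, minus strand: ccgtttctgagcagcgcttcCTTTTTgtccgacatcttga
RPL39, chrX:119791611-119791650, minus strand: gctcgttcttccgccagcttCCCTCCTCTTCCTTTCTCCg
RPS28, chr19:8321476-8321515, plus strand: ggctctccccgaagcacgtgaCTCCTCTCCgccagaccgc
RPS15, chr19:1438376-1438415, plus strand: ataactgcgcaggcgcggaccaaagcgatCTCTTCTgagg
RPLP2, chr11:809947-809986, plus strand: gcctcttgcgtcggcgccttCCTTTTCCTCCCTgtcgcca
RPL31, chr2:101002269-101002308, plus strand: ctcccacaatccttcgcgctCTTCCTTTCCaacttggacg
RPS14, chr5:150449720-150449759, minus strand: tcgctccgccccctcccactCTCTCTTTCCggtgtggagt
RPL41, chr12:56116613-56116652, plus strand: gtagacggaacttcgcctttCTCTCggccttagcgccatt
RPS12, chr6:132814549-132814588, plus strand: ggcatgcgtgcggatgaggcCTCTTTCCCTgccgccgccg
FAU, chr11:65122115-65122154, minus strand: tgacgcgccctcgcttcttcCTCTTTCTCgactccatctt
RPS18, chr6:33272055-33272094, plus strand: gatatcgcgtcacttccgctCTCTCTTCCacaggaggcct
RPS6, chr9:19380217-19380256, minus strand: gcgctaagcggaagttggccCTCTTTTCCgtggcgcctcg
RPS27L, chr15:63157458-63157497, minus strand: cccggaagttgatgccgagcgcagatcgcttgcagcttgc
The marked tract began at the annotated start in 11 of these genes, 1 base later in RPS28 and 9 bases later in RPS15. RPS27L held none in its 40 bases. In those 11 genes the base before the start was also a C or T, so the whole run of pyrimidines began further upstream. Members not shown, such as RPS4X, RPL6 and RPL15, also held none there, and RPL23A had no promoter entry. Of the 65 members with a promoter entry, 43 (66.2%) had such a match exactly at the start, whatever came before it. This held for 4.04% of 27305 genes in the table. Allowing the match anywhere within 20 bases of the start gave 59 members (90.8%), against 50.3% of all genes.

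Total estimated counts were 19146108 to 24179533 per sample, and 16994 genes passed the filter on low counts. Epithelial markers (EPCAM, CDH1 and keratins among 9 genes) summed to 5622 to 5774 CPM, a count relative to the scaled library total, in deprived and 4178 to 4639 CPM in control cells at 24 h, and to 5364 to 5982 CPM in deprived and 4666 to 5168 CPM in control cells at 48 h, with none at 0. The 8 colon markers summed to at most 23.4 CPM with 3 at 0 in every group. Fibroblast, leukocyte, endothelial and neural markers each summed to at most 58 CPM. At 24 h, fibroblast markers summed to 16.3 to 20.7 CPM, endothelial to 32.7 to 33.4, leukocyte to 11 to 12 and neural to 32.5 to 34.4 CPM in deprived cells, against 32.3 to 34.2, 44.8 to 52.4, 4.58 to 5.28 and 16.7 to 18.9 CPM in the same order in control cells. At 48 h the 4 sums were 20.3 to 22.6, 20.1 to 22.4, 22.6 to 27 and 44.5 to 47.7 CPM in deprived cells, against 44.6 to 49.3, 48.8 to 58, 10.4 to 10.9 and 19.2 to 20 CPM in control cells. The part of these shifts in the results below was not tested.

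Of the 82 members, 79 passed the filter. RPL3L, a striated muscle paralog of RPL3, had 0, 0 and 0 counts in deprived cells at 48 h and 11, 2 and 5 in control cells. RPL10L, a testis paralog of RPL10, had no count in any sample, and RPL39L, a paralog of RPL39, had at most 3. Levels between genes were compared per length, as TPM computed from the counts and the deposited gene lengths. In control cells at 24 h the 79 genes had a median of 1888 TPM, with RPS2, which lines the mRNA entry channel, highest at 8910 TPM and RPS27L lowest at 153 TPM. For 8 genes the deposited length was over 2 times that of the principal transcript in GENCODE 29, so their TPM would be higher with the shorter length. For some members, such as RPL37 and RPS27L, the principal transcript is itself long, and levels between genes are approximate.

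Ribosomal protein RNA took a smaller share of the library after 48 h without cystine. The members held 5.85%, 6.31% and 6.16% of named-gene counts in deprived cells at 48 h, against 7.52%, 7.99% and 8.16% in control cells. All 3 deprived samples lay below all 3 control samples, with means of 6.11% ± 0.232 in deprived and 7.89% ± 0.328 in control cells (SD, n = 3 each). At 24 h the share was 7.57%, 7.34% and 7.61% in deprived cells, against 7.62%, 8.11% and 7.8% in control cells; the groups did not overlap, but the nearest samples differed by less than the spread within each group. Large-subunit genes had 1.63 ± 0.0102 counts for each small-subunit count in deprived cells at 48 h and 1.61 ± 0.0202 in control cells, and these overlapped. At 24 h the ratio was 1.64, 1.63 and 1.63 in deprived cells and 1.59, 1.57 and 1.6 in control cells, a small difference with separate groups. A lower share can come from less RNA of the members or from more RNA of other genes, and a share cannot tell these apart. Bulk RNA also cannot tell a change in all cells from a change in some of them.

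**Figure D1:**
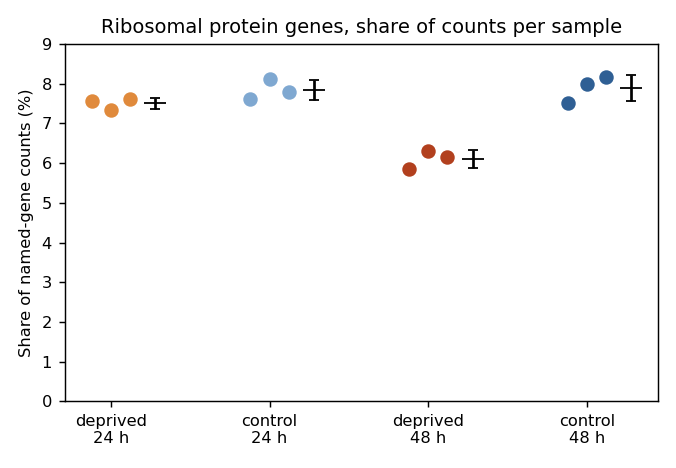
Share of named-gene counts held by the 82 ribosomal protein genes (y axis, percent) in each sample, by group; points are samples and the black mark is the mean ± SD (n = 3). Deprived cells at 48 h sit between 5.85% and 6.31%, below every other sample.

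At 24 h the members moved little and in both directions. Of 79 tested, 12 were higher and 12 lower in deprived cells and 55 did not pass (edgeR's quasi-likelihood test, Benjamini-Hochberg adjusted p under 0.05 over all genes). Among all tested genes 28.8% were higher and 26.9% lower, so the members' 15.2% in each direction was below that background. Their log2 fold changes ran from -0.43 to 0.27 with a median of 0.01, beside -0.01 for all genes, and none reached 1.5-fold in either direction, while 13.3% of all genes fell that far. The split depends on scaling: upper-quartile factors gave 4 higher and 26 lower, and library totals alone 5 higher and 31 lower. Groups did not overlap for 17 higher members (32.1% of all genes) and 13 lower members (30.7% of all genes).

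The 8 largest rises at 24 h were those of RPS18, RPL10, RPL37, RPS6, RPL36, FAU, RPL12 and RPL4. RPL10, which helps shape the peptidyl transferase centre and joins the large subunit late, had 1405, 1398 and 1450 CPM in deprived cells and 1123, 1220 and 1190 CPM in control cells. All deprived samples were above all control samples (log2 fold change 0.27 ± 0.05 SE, adjusted p = 0.00036). RPS18, a small-subunit head protein, had 1936, 1964 and 1967 CPM in deprived cells and 1513, 1723 and 1617 CPM in control cells. The groups were again separate (0.27 ± 0.06, adjusted p = 0.000377). RPS6, the substrate of S6 kinase downstream of mTOR, had 2103, 2008 and 2077 CPM in deprived cells and 1712, 1849 and 1790 CPM in control cells. It rose by 0.21 ± 0.06 (adjusted p = 0.00479). The calls of RPL36, FAU and RPL4 were lost with both upper-quartile factors and library totals (adjusted p between 0.0561 and 0.098), and that of RPL12 with upper-quartile factors (0.0823). Without control sample 1 at 24 h the calls of FAU (0.0817), RPL12 (0.0639) and RPL4 (0.0562) were lost, and without control sample 3 that of RPS28 among the falls (0.0515).

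The largest falls at 24 h were in genes that fell further later. RPS9, a small-subunit protein at the mRNA entry channel, had 606, 592 and 622 CPM in deprived cells and 770, 860 and 824 CPM in control cells. Every deprived sample was lower (log2 fold change -0.43 ± 0.06, adjusted p = 6.77e-06). RPL7A followed with -0.32 ± 0.06 and RPS15, which sits near the decoding site, with -0.30 ± 0.05. RPL39, RPS25, RPL23A, RPS28 and RPS24 had log2 fold changes from -0.25 to -0.19. All 12 members that were lower at 24 h were also lower at 48 h. At that later time 81% of all tested members and 34.9% of all genes were lower.

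At 48 h most members were lower. Of 79 tested, 64 were lower, 3 were higher and 12 did not pass, that is 81% lower against a background of 34.9% lower and 33.5% higher among all genes. The median log2 fold change was -0.35 for the members and -0.02 for all genes. Each subunit showed this, with 37 of 46 tested large-subunit genes lower (median -0.29) and 27 of 33 small-subunit genes lower (median -0.39). Most changes were small: 16 members fell at least 1.5-fold, and 23.3% of all genes did so. The groups did not overlap for 62 lower and 2 higher members, beside 35.8% and 34.2% of all genes.

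**Figure D2:**
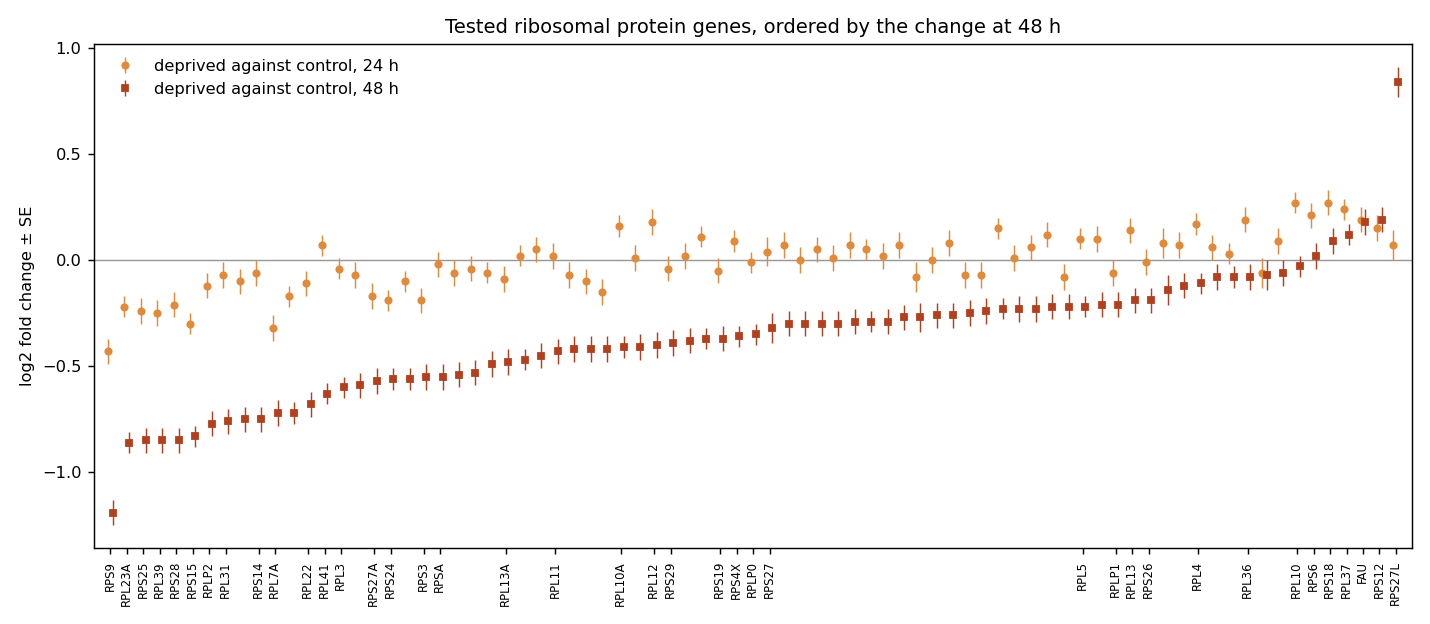
Log2 fold change ± SE (y axis) of deprived against control cells at 24 h (circles) and 48 h (squares) for the 79 tested ribosomal protein genes, ordered by the change at 48 h, with names on the x axis for the genes named by the selection rule. The 24 h values stay between -0.43 and 0.27, while the 48 h values run from -1.19 for RPS9 to 0.84 for RPS27L.

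RPS9 fell most. It had 350, 397 and 396 CPM in deprived cells at 48 h, against 801, 915 and 900 CPM in control cells. The highest deprived sample was below the lowest control sample, and the level in deprived cells was 0.437 times that in control cells (log2 fold change -1.19 ± 0.06, adjusted p = 2.46e-12). RPS3 and RPS2, which also line the mRNA entry channel, fell by 0.55 ± 0.06 and 0.42 ± 0.06 on the log2 scale.

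Genes at the peptide exit tunnel differed widely. RPL23A, which forms part of the docking site for the signal recognition particle, had 264, 289 and 276 CPM in deprived cells and 470, 508 and 523 CPM in control cells. The groups were well apart (log2 fold change -0.86 ± 0.05, adjusted p = 2.37e-11). RPL39, a small protein of the tunnel wall, had 208, 241 and 227 CPM in deprived cells and 379, 420 and 422 CPM in control cells. It fell by 0.85 ± 0.06 (adjusted p = 2.93e-10), and RPL31, at the tunnel exit, fell by 0.76 ± 0.06. RPL4, whose loop reaches into the tunnel, stayed uncalled at -0.11 ± 0.05 (adjusted p = 0.0896). RPL26 and RPL35, also near the tunnel exit, had -0.23 ± 0.05 and -0.26 ± 0.06. These tunnel genes were grouped after their values were seen.

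Among small-subunit genes, RPS25, RPS28 and RPS15 followed RPS9. RPS25, which several viral internal ribosome entry sites need, had 337, 371 and 349 CPM in deprived cells and 586, 656 and 661 CPM in control cells (log2 fold change -0.85 ± 0.06, adjusted p = 5.03e-10). RPS28 had 168, 174 and 181 CPM in deprived cells and 289, 312 and 342 CPM in control cells (-0.85 ± 0.06). RPS15 had 223, 252 and 250 CPM in deprived cells and 411, 437 and 438 CPM in control cells (-0.83 ± 0.05). In all of them the groups were separate. RPS14, the gene of the anaemia of the 5q deletion syndrome, fell by 0.75 ± 0.06, and RPSA, which is also known as the laminin receptor, fell by 0.55 ± 0.06.

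The stalk recruits translation factors to the large subunit. All 4 of its genes fell at 48 h, with a median of -0.37. This was close to all tested members, of which 81% were lower with a median of -0.35. Among all genes 34.9% were lower. RPLP2 had 366, 413 and 406 CPM in deprived cells and 626, 658 and 736 CPM in control cells. It fell by 0.77 ± 0.06 (adjusted p = 1.32e-09), whereas RPLP0, the stalk base, fell by 0.35 ± 0.05 and RPLP1, the dimer partner of RPLP2, by 0.21 ± 0.06 (adjusted p = 0.00479). The call of RPLP1 was lost without the third control sample at 48 h (adjusted p = 0.0504). RPL12, the other stalk gene, was higher at 24 h (0.18 ± 0.06) and lower at 48 h (-0.40 ± 0.06). RPL10A, RPL26 and RPL13 were likewise called higher at 24 h and lower at 48 h. Results of other processing are given below for RPL10A and RPL13 but not for RPL26. RPL10A, which flanks the tRNA exit site, had 0.16 ± 0.05 at 24 h and -0.41 ± 0.05 at 48 h. Its 24 h call was lost with upper-quartile factors (adjusted p = 0.104) and library totals (0.078). That of RPL13 (0.14 ± 0.06, adjusted p = 0.0467) was lost with RLE factors (0.0579), upper-quartile factors (0.287), library totals (0.228), the stricter filter (0.0682) and each 24 h sample left out (0.0586 to 0.162).

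Of the 10 members listed as binding MDM2, the ubiquitin ligase of p53, 9 fell and RPS27L rose at 48 h (median -0.37), close to the 81% lower and median of -0.35 of all tested members and above the 34.9% lower of all genes. RPL11 had 479, 555 and 525 CPM in deprived cells and 670, 709 and 723 CPM in control cells (log2 fold change -0.43 ± 0.06, adjusted p = 1.77e-06). Its partner RPL5, with which it holds MDM2, had 956, 1063 and 1030 CPM in deprived cells and 1124, 1202 and 1220 CPM in control cells (-0.22 ± 0.05, adjusted p = 0.000755). Both were lower in every deprived sample. Of 20 members mutated in Diamond-Blackfan anaemia, an inherited failure of red cell production, 18 fell (median -0.38), again close to the members as a whole, with RPS19, the gene most often mutated, at -0.37 ± 0.06. Of 7 zinc-binding members, 5 fell (71.4%, median -0.30). RPS26 was among them at -0.19 ± 0.06 (adjusted p = 0.0149), but its groups overlapped and its call was lost without control samples 2 or 3 or deprived sample 1 at 48 h (adjusted p between 0.054 and 0.0841). RPL3, at the peptidyl transferase centre, fell by 0.60 ± 0.05 and RPL13A, which also regulates translation outside the ribosome, by 0.48 ± 0.06. RPS4X, encoded on the X chromosome, fell by 0.36 ± 0.05.

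Only 3 members were higher at 48 h. RPS27L, a paralog of RPS27 and a known p53 target gene, had 62.4, 71.3 and 68.4 CPM in deprived cells at 48 h, against 38.1, 35.8 and 38.9 CPM in control cells. The groups were far apart (1.79-fold, log2 fold change 0.84 ± 0.07, adjusted p = 1.33e-09). At 24 h it had 56.9, 53.2 and 55 CPM in deprived cells and 51.3, 56.7 and 49 CPM in control cells, which overlapped (0.07 ± 0.07, adjusted p = 0.376). RPS12, a protein of the small-subunit beak, had 823, 922 and 872 CPM in deprived cells at 48 h and 690, 787 and 822 CPM in control cells. The lowest deprived sample was level with the highest control sample (0.19 ± 0.06, adjusted p = 0.0126). FAU, whose product is a ubiquitin-like fusion with RPS30, had 277, 319 and 320 CPM in deprived cells and 249, 279 and 281 CPM in control cells, and these overlapped (0.18 ± 0.06, adjusted p = 0.0153). The calls of RPS12 and FAU were lost with upper-quartile factors (adjusted p = 0.0585 and 0.0666), without control sample 1 (0.0838 and 0.0872) and without deprived sample 2 (0.0654 and 0.0679), and that of FAU also without deprived sample 3 (0.0672).

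The 12 members that did not pass at 48 h included RPL4, RPL10, RPL36, RPL37, RPS6 and RPS18. RPS6 had 1763, 2031 and 1994 CPM in deprived cells and 1767, 1989 and 1971 CPM in control cells, and these overlapped throughout (0.02 ± 0.06, adjusted p = 0.827). RPL10, RPS18 and RPL37, which were higher at 24 h, had -0.03 ± 0.05, 0.09 ± 0.06 and 0.12 ± 0.05 at 48 h. These values limit the size of a change but do not show that there was none.

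**Figure D3:**
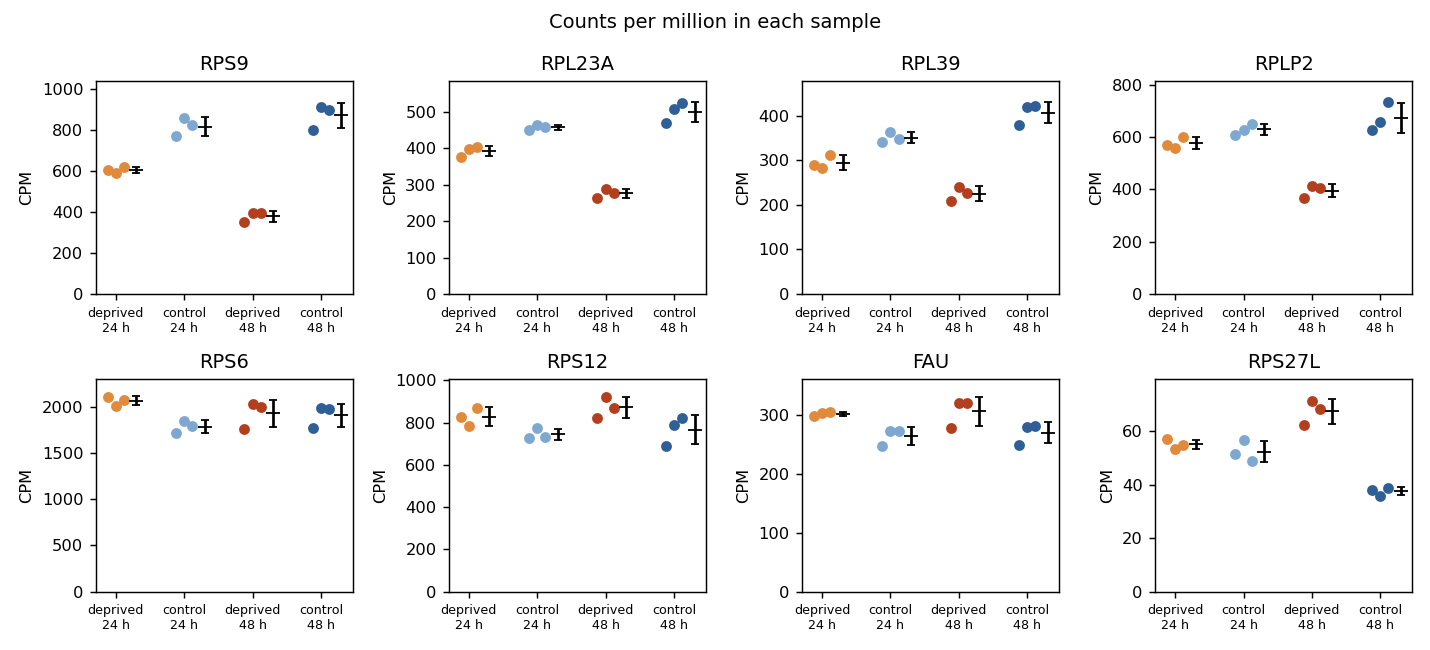
CPM (y axes, from 0) of 8 ribosomal protein genes in each sample; points are samples and black marks are means ± SD (n = 3). RPS9, RPL23A, RPL39 and RPLP2 are lowest in deprived cells at 48 h, RPS6 overlaps between groups at 48 h, and RPS27L lies between 62.4 and 71.3 CPM in deprived and 35.8 and 38.9 CPM in control cells at 48 h.

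The effect of deprivation differed between the times. The difference of the effect at 48 h and that at 24 h passed the test downward in 61 members (19.2% of all genes) and upward in RPS27L alone (16.4% of all genes), with a median of -0.35 beside -0.01 for all genes. The largest differences were those of RPS27L (0.77 ± 0.09), RPS9 (-0.76 ± 0.09), RPL41, RPL31 and RPS14 (-0.69 each) and RPLP2 (-0.65 ± 0.09). RPL41, which encodes a peptide of 25 residues, had log2 fold changes of -0.63 ± 0.05 at 48 h and 0.07 ± 0.05 at 24 h.

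Split by medium, most of the movement with time was in deprived cells. In these, 63 members were lower and 1 higher at 48 h than at 24 h (median -0.26; 21.8% and 20.7% of all genes). The largest falls were those of RPS9, RPS14, RPL41 and RPSA, with log2 fold changes from -0.67 to -0.65. RPSA had 1098, 1269 and 1260 CPM at 48 h and 1941, 1823 and 1945 CPM at 24 h in deprived cells. In control cells 6 members were higher, RPS29, RPL13, RPL39 and RPL31 among them, and RPS27L was lower at 48 h than at 24 h (median 0.08; 12.7% and 10.4% of all genes). That count of 7 ranged between 3 and 23 when single samples were left out. RPS27L had 38.1, 35.8 and 38.9 CPM at 48 h and 51.3, 56.7 and 49 CPM at 24 h in control cells, a change of -0.48 ± 0.07 (adjusted p = 6.09e-05), while in deprived cells it was 0.29 ± 0.06 higher at 48 h than at 24 h (adjusted p = 0.00126). Its difference between media at 48 h thus joins a lower level in control cells and a higher level in deprived cells. These contrasts share their samples with those above.

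The members did not move as a block. Their log2 fold changes at 48 h had an SD of 0.30, against 0.14 at 24 h and 0.10 for control cells at 48 h against 24 h, with a median SE of 0.06. A second fit set each gene against the summed count of the members, which the scaling of the libraries cannot move. In it, 26 members were higher and 28 lower than the members as a whole at 48 h (49.1% and 21.2% of all genes), and 17 and 16 at 24 h (26% and 25.6% of all genes). The members are their own reference here (median -0.01 at 48 h), so a near-even split follows from the fit. The shares of all genes at 48 h include the fall of that reference and are no background for the split. The largest departures at 48 h were those of RPS27L (1.18 ± 0.07), RPS9 (-0.85 ± 0.04), RPS12 (0.54 ± 0.04), FAU (0.53 ± 0.04), and RPL23A and RPL39 (-0.51 ± 0.04 each). The adjusted p of RPS12 was 5.61e-09 and that of FAU 1.42e-08, so both stood apart from the other members although their own rise was small. The order of the members was alike at both times, which share no samples: over the 79 genes the log2 fold changes at 48 h and 24 h had Pearson's r = 0.75 and Spearman's rho = 0.75, and r = 0.81 without RPS27L. Genes share libraries within each time and are not independent replicates.

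Paralogs shifted in relation to their partners. RPS27L counts were 13.2%, 13.1% and 13.2% of RPS27 counts in deprived cells at 48 h, against 6.53%, 5.37% and 5.83% in control cells. At 24 h the ratio was 9.29% ± 0.0635 in deprived and 9.07% ± 0.467 in control cells. RPL7L1, a nucleolar relative of RPL7 outside the name rule, rose at 48 h by 0.81 ± 0.05 on the log2 scale while RPL7 fell by 0.30 ± 0.06. Its counts at 48 h were 18.6% ± 0.374 of those of RPL7 in deprived and 8.63% ± 0.437 in control cells, with the groups far apart. The groups were already separate at 24 h, with 12.4% ± 0.434 in deprived and 8.78% ± 0.435 in control cells. RPL22L1 counts were 48% ± 2.13 of those of RPL22 in deprived and 30.9% ± 1.33 in control cells at 48 h. There RPL22 fell by 0.68 ± 0.06 while RPL22L1 had -0.04 ± 0.07. At 24 h this ratio was 39.4% ± 0.581 in deprived and 33.8% ± 1.86 in control cells, also with separate groups. RPL36AL counts were 55.9% ± 2.91 of those of RPL36A in deprived and 54.9% ± 5.09 in control cells at 48 h, which overlapped; at 24 h the ratio was lower, at 47.4% ± 1.09 in deprived and 57.1% ± 0.73 in control cells. RPL26L1 counts were 3.04% ± 0.0845 of those of RPL26 in deprived and 1.78% ± 0.0495 in control cells at 48 h, and 2.22% ± 0.156 in deprived and 2.56% ± 0.24 in control cells at 24 h.

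**Figure D4:**
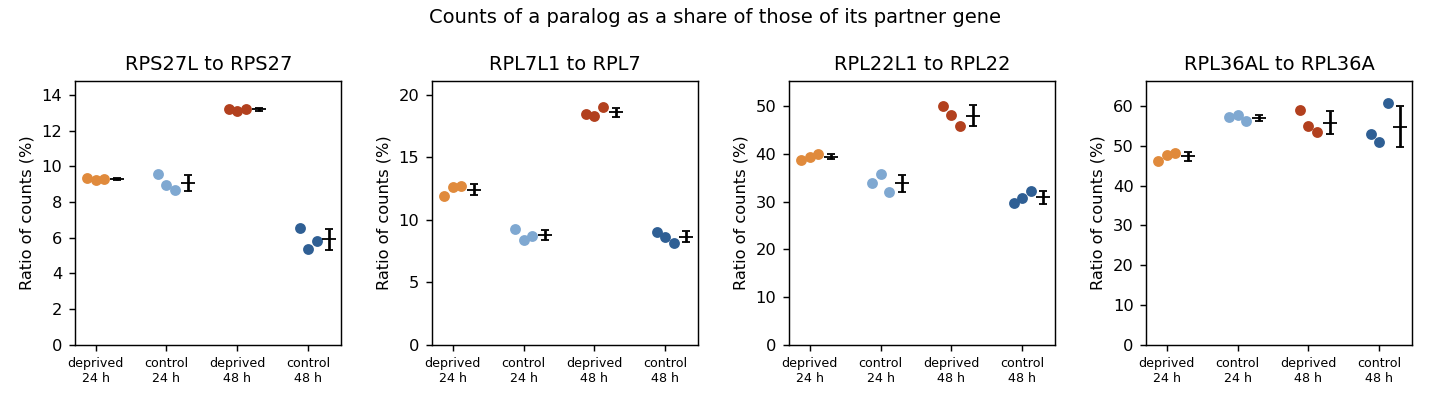
Counts of 4 paralogs as a percentage of the counts of their partner gene (y axes, from 0) in each sample, by group; points are samples and black marks are means ± SD (n = 3). RPS27L to RPS27, RPL7L1 to RPL7 and RPL22L1 to RPL22 are highest in deprived cells at 48 h, and RPL36AL to RPL36A overlaps between groups at 48 h.

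Some counts are less certain because copies share reads. The members have 1227 named pseudogene rows, which held 49% of the joint count of RPL23A and its copies, 21.1% for RPL21, 9.52% for RPL22, 7.16% for RPS2, 4.69% for RPS10 and 4.59% for RPL32. For RPS10 the copies' share was 9.63% in deprived and 2.56% in control cells at 48 h. With pseudogene counts added to their members, 24 members were called at 24 h and 67 at 48 h, the same numbers as without them. RPS9, RPS27L, RPL39 and RPS12 are each under the 2% limit used here. Read-through rows, which join a member to a neighbouring gene, can share its reads as well. RPL17-C18orf32 had a mean of 2987.21 counts per sample, RPL36A-HNRNPH2 1810.74 and RPS10-NUDT3 749.74. The ratio of RPL36AL to RPL36A above leaves the read-through row out.

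Members were compared by the start motif. The 43 tested genes with a tract match exactly at the start had a median log2 fold change of -0.37 at 48 h. The 21 without a match there had -0.38. With the tract anywhere within 20 bases, the 59 holders had -0.39 and the 5 others -0.29. Other promoter motifs were commoner in the members than in all 27305 promoters of 300 bases, searched on both strands. These were CCGGAAG, the core site of ETS factors, in 33.8% against 10.7%, TCTCGCGA, linked to ZBTB33, in 16.9% against 1.19%, and AAGATGGC, that of YY1, in 10.8% against 3.03%. TATAAA occurred in 9.23% of members and 12% of all promoters, and GGGCGG in 56.9% and 44.6%. None of these strings contains another. The 40 bases of RPS27L hold CCGGAAG, and those of RPS9 do not.

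Coding sequences were read for cysteine codons, since cystine was withheld. The 15 tested members with no cysteine codon had a median log2 fold change of -0.54 at 48 h, with 13 lower and none higher. The 42 with 1 to 3 such codons had -0.32, with 35 lower and 1 higher. The 22 with 4 or more had -0.29, with 16 lower and 2 higher, RPS12 and RPS27L. Among all tested members 81% were lower and 3.8% higher, and among all genes 34.9% and 33.5%. Genes without cysteine codons thus had the lower median, with wide overlap, since RPS18 has none and was at 0.09. Across 79 genes the share of cysteine codons and the log2 fold change had r = 0.42 and rho = 0.30, and r = 0.30 and rho = 0.27 without RPS27L. Coding length gave r = 0.01 and the GC content of the transcript r = -0.23. The 28 members with a small nucleolar RNA gene inside them had a median of -0.41, and the other 51 had -0.30.

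Other genes of the ribosome's supply line went different ways. Of 25 further TOP mRNAs at 48 h, 18 fell and 3 rose (median -0.37), beside 34.9% lower and 33.5% higher and a median of -0.02 for all genes. EIF4B, an initiation factor, fell by 0.80 ± 0.05 and EEF2, the translocation factor, by 0.54 ± 0.06, while EEF1A1, which brings tRNAs to the ribosome, had -0.01 ± 0.05. HNRNPA1, a splicing regulator, and NAP1L1, a histone chaperone, fell by 1.26 ± 0.04 and 1.19 ± 0.05. Of 46 ribosome biogenesis genes, 40 rose and 3 fell at 48 h (median 0.68), and 41 rose and none fell at 24 h (median 0.55). Among all genes 28.8% were higher and 26.9% lower at 24 h. The rises at 48 h included RRP12, an export factor (1.68 ± 0.06), RPF2, which brings RPL5 and RPL11 to the pre-ribosome (1.62 ± 0.06), and DDX21, a nucleolar RNA helicase (1.56 ± 0.05). The 3 that fell, named after their values were seen, were FBL, the methyltransferase of ribosomal RNA (-0.81 ± 0.07), NOB1, the nuclease that finishes the small-subunit RNA (-0.41 ± 0.06), and the helicase DDX10 (-0.13 ± 0.06).

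**Figure D5:**
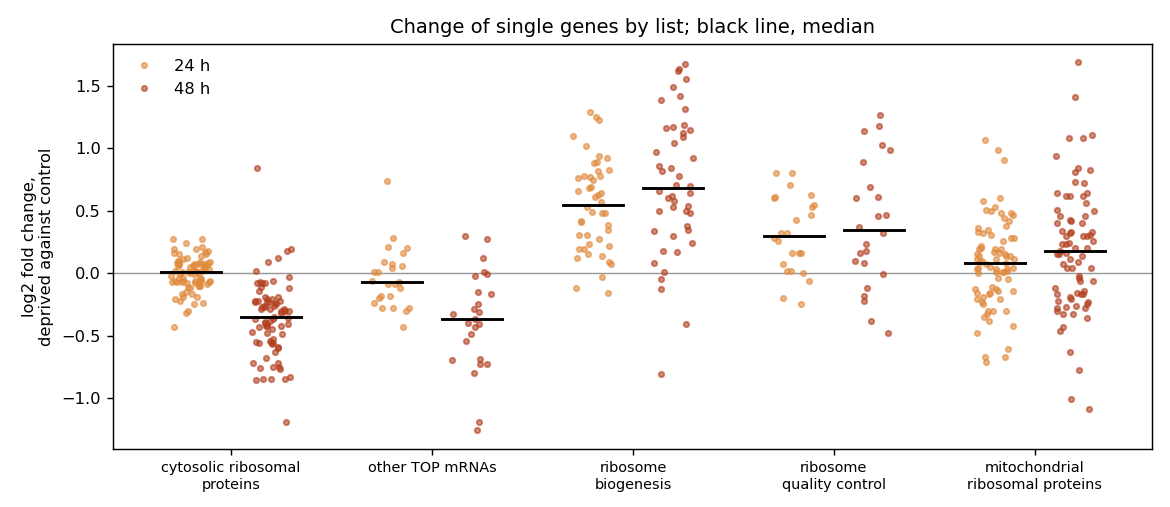
Log2 fold change of deprived against control cells (y axis) for single tested genes in 5 lists at 24 h and 48 h; each point is a gene and black lines are medians. At 48 h the medians are -0.35 for cytosolic ribosomal proteins, -0.37 for other TOP mRNAs, 0.68 for ribosome biogenesis, 0.35 for ribosome quality control and 0.18 for mitochondrial ribosomal proteins.

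The 79 mitochondrial ribosomal protein genes, which serve the separate ribosome of that organelle, had 40 higher and 22 lower at 48 h (50.6% and 27.8%, median 0.18), beside 33.5% and 34.9% of all genes, from -1.09 ± 0.09 for MRPL14 to 1.69 ± 0.06 for MRPL24. Of 24 genes of ribosome quality control, 16 rose and 3 fell (66.7% and 12.5%, median 0.35), among them PELO, which rescues stalled ribosomes (1.27 ± 0.06), and ABCE1, which splits them (1.14 ± 0.05). Of 18 regulators of ribosomal protein mRNAs, 9 rose and 6 fell (50% and 33.3%). EIF4EBP1, the mTOR-controlled repressor of cap binding, rose by 1.98 ± 0.07, and LARP1 by 0.81 ± 0.05. Of 16 chaperones and importers of ribosomal proteins 8 rose and 6 fell (50% and 37.5%, not far from all genes), with the importers TNPO1 at 0.83 ± 0.06 and IPO7 at -0.71 ± 0.05. Of 13 transcription factors of ribosomal protein genes 7 rose and 3 fell (median 0.25), and of 19 tested genes of RNA polymerase I 8 rose and 6 fell (median 0.06). Of 9 genes linking ribosomal proteins to p53, 6 rose and 1 fell at 48 h. The rises included CDKN1A, the cell cycle inhibitor (2.00 ± 0.07), and MDM2 (0.38 ± 0.06). In this list 8 were already higher and 1 lower at 24 h (median 0.55), beside 28.8% and 26.9% of all genes at that time. Of 15 genes of the eIF2 control of translation 11 rose and 3 fell at 48 h. PPP1R15A, which directs the removal of the phosphate from eIF2, was at 3.49 ± 0.07.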

How the data were processed

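RNA sequencing of 12 HCT116 samples, 3 in each of 4 groups named in the sample titles, was taken from the deposited gene table. The labels name a TPM table, but column totals differ between samples, so the deposited values were taken to be estimated counts per gene without normalization; the submitters' processing notes name fastp, HISAT, RSEM and GRCh38. Between 13.5% and 14.7% of values per sample are not whole numbers. The sources used here do not state strandedness, so reads of genes on opposite strands may be mixed. Rows without a gene name (316 of 60987) held 0.762% of counts in deprived and 1.2% in control cells at 48 h, and 1.06% in deprived and 1.55% in control cells at 24 h, and were left out. All per-sample columns were used.

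Counts were rounded, filtered (edgeR filterByExpr, minimum count 10, total 15), scaled with TMM factors and fitted over all 12 samples with edgeR 4.0.16 in R 4.3.3 (glmQLFit, glmQLFTest), with p adjusted by Benjamini-Hochberg over 16994 genes at 0.05. The biological coefficient of variation was 6.4%. CPM are TMM-scaled. The second fit used the log summed member count as its offset. The code was tested on simulated data. Pairs of replicates differed by 2.99 to 8.14 times the counting noise (chi-square per degree of freedom), so none was counted as a repeat reading of the same library. This cannot show whether they came from separate cultures. Alternatives were RLE, upper-quartile and library-total scaling, other filters, DESeq2 1.42.0, a replicate block, fits of the compared groups alone, single samples left out and, chosen after seeing the data, read-through rows added to the members.

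The members and gene lists were chosen with earlier results of these data known. Members named are the 8 largest called rises and falls at each time, the largest 6 for the difference between times and for the departure from the members, the 4 largest of each time contrast and a set by role; outside them, a fixed set and at most 4 genes of a list with the smallest adjusted p. Further members, such as those not called at 48 h, were named after their values were seen. Coding sequence and gene models came from GENCODE 29 (GRCh38), promoters from RefSeq (GRCh38.p14).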

Additional observations from a re-analysis of the deposited data

Results flagged for a closer look

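The effect of cystine deprivation on RNA level differed between 48 h and 24 h, by a test of the difference itself in edgeR, in 62 of 79 ribosomal protein genes. As log2 differences, the effect at 48 h minus that at 24 h was 0.77 for RPS27L, -0.76 for RPS9, -0.69 for RPL41, -0.69 for RPL31, -0.69 for RPS14 and -0.65 for RPLP2. Groups of 3 samples were not searched for single samples far from the others.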

How the results depend on the processing

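The counts of members called at 24 h and 48 h, with a different effect between times, changed with time in deprived cells, and apart from the members as a whole stayed within 1.5 times their value under every alternative run. Leaving out single samples gave 18 to 25 called at 24 h, 66 to 68 at 48 h, 58 to 67 for the difference between times, 53 to 65 for deprived cells with time, and 26 to 32 at 24 h and 49 to 56 at 48 h for departures from the members. The median log2 fold change at 24 h is near 0 and changed sign: -0.06 with upper-quartile factors, -0.07 with library totals, -0.02 with the stricter filter, -0.00 with the compared groups alone, and -0.03 to 0.03 with single samples left out. The median at 48 h was -0.38 to -0.29 with single samples left out, with -0.29 without deprived sample 1 at 48 h. The 7 members called in control cells at 48 h against 24 h became 11 with library totals, 17 with the stricter filter, 13 with the replicate block, and 3 to 23 with single samples left out: 23 without control sample 1 at 48 h, 3 without control sample 2 or 3 at 48 h, 4 without control sample 1 at 24 h and 12 without deprived sample 1 at 48 h. The cause was not tested. Without mitochondrial rows the members held 8.04% of counts in deprived and 8.44% in control cells at 24 h, and 6.63% in deprived and 8.63% in control cells at 48 h. Over all tested genes, same-numbered samples had r from -0.06 to 0.10 and other pairs from -0.09 to 0.07. With 3 samples in a group this cannot exclude a pairing by number. Sample 1 had the lowest summed member CPM in control cells at 24 h (72843) and 48 h (73894). It was also lowest in deprived cells at 48 h (57579), but not in deprived cells at 24 h. The replicate block gave 26 called members at 24 h and 71 at 48 h. Single members named by the selection rule kept their direction in all alternatives, and 63 of their calls in 2652 comparisons were lost. DESeq2 called 24 members at 24 h and 68 at 48 h. Genes with few counts, such as RPL3L, are limited by depth.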
